A study of Mus musculus with 2 samples.

Results

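Small nucleolar RNA host genes were followed in male germ cells of the fetal mouse testis. The group was chosen by symbol, as Snhg1, Snhg3, Snhg6, Snhg8, Snhg12 and Gas5 where the count tables list them, and with earlier values of these libraries known, so all values below are descriptions. Of these 6 genes, 2 are described, Snhg6 and Snhg12. They are 2 of 16430 genes in the E13.5 table and 2 of 16180 in the E12.5 table. Snhg1, Snhg3, Snhg8 and Gas5 are not analysed here. The E13.5 group and the E12.5 group were each a single library of male CD1 germ cells, CD1 being an outbred mouse stock. Both groups carried Oct4-GFP, a fluorescent reporter of the pluripotency gene Pou5f1, and cells positive for it were taken by flow sorting, so the reporter gate is shared by both stages. The sources used here do not give how many embryos were pooled. The libraries were droplet single-cell RNA-seq (10x v2 chemistry), which counts transcript 3′ ends by unique molecular identifiers (UMIs).

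Small nucleolar RNAs (snoRNAs) are short nuclear RNAs that guide the chemical modification of ribosomal RNA. Box C/D snoRNAs guide ribose methylation and H/ACA snoRNAs guide pseudouridylation. Most mammalian snoRNAs are cut from introns of longer host transcripts. In the Snhg family the spliced host RNA has no known long protein, and many such RNAs are degraded in the cytoplasm by nonsense-mediated decay. Many snoRNA hosts share with ribosomal protein messages a 5′ terminal oligopyrimidine (TOP) start, a C followed by an unbroken run of C and T, which ties the translation of such RNAs to growth signals. Germ cells of the fetal testis divide after they reach the gonad and then leave the cell cycle as the male pathway begins.

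Snhg6 lies on mouse chromosome 1 from 9941959 to 9944118 (minus strand, GRCm38), and Snhg12 on chromosome 4 from 132308623 to 132311024 (plus strand). GENCODE M21 annotates both as long intergenic non-coding RNA genes. The 5′ ends of a transcript of each are shown because they carry the same first 8 bases. Capitals mark the 7 bases CTTTCTC, chosen after the sequences were seen. The Snhg6 transcript starts at chromosome 1 base 9944118 and the Snhg12 transcript at chromosome 4 base 132308677.
Snhg6-203: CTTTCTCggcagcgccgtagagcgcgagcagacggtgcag
Snhg12-204: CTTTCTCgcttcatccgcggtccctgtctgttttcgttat
Such a transcript start was found in 23 of 55341 GENCODE genes (0.0416%) and in 0 of 86 annotated ribosomal protein genes. Only 1 of the 5 annotated transcripts of Snhg6 and 1 of the 10 of Snhg12 begin this way. A looser start, C and then 6 bases that are each C or T, was found in 27 of the 86 ribosomal protein genes (31.4%) and in 2.06% of all genes. The match describes the annotation and is no measurement of transcription start in these cells.

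The promoter of Snhg12 is shown because RefSeq's GRCm38.p6 promoter table gives its start site. The window is chr4:132308428-132308727, plus strand, 250 bases before the start site and 50 after it. Capitals mark TATAA, which begins 30 bases before the start site, and CTTTCTC, which begins 1 base before it.
Snhg12 promoter: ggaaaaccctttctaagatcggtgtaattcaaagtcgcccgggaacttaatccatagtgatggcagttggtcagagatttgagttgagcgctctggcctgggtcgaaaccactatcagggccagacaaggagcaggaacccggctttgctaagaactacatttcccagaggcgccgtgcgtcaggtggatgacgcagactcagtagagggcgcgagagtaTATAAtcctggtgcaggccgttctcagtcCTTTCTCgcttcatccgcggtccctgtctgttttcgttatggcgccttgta
Read on the strand of each gene, TATAA lying within 40 to 11 bases before the start site was found in 3.79% of 32851 promoter windows, and CTTTCTC within 3 bases of the start site in 46 of them (0.140%), 2 of which were among the 75 windows of ribosomal protein genes. A C exactly at the start site and then at least 4 bases of C or T was not found for Snhg12. That start was found in 15 of the 75 ribosomal protein windows (20.0%) and in 2.51% of all windows.

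The snoRNAs encoded in the introns are shown because they are the known products of these hosts. Snord87, a box C/D snoRNA, lies in intron 2 of the 3 introns of Snhg6-203, at chr1:9942463-9942549 on the minus strand. Each of the 4 introns of Snhg12-206 holds 1 snoRNA. These are, in order, the H/ACA snoRNAs Snora16a, Snora44 and Snora61 and the box C/D snoRNA Snord99. Snora16a spans chr4:132309464-132309600, Snora61 spans chr4:132310240-132310369 and Snord99 spans chr4:132310691-132310764, all on the plus strand. Capitals mark box C (TGATGA) and box D (CTGA) in the box C/D snoRNAs, and the ACA 3 bases from the end in Snora16a and Snora61. Snora44, at chr4:132309941-132310069 on the plus strand, has no ACA at that place in the annotated sequence and is named only.
Snord87: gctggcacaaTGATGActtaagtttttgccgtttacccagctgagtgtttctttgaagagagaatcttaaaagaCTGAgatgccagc
Snord99: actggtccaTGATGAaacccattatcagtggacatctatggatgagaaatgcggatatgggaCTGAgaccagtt
Snora16a: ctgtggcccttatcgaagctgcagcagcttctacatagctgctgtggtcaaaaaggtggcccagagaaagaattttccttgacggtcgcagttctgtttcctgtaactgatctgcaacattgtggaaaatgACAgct
Snora61: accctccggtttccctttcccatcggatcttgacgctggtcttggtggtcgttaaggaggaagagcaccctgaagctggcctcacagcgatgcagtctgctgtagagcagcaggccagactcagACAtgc
The snoRNAs themselves are not analysed here, and the values below are those of the polyadenylated host RNAs.

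Among 2670 kept barcodes at E13.5 and 2621 at E12.5, 2549 (95.5%) and 2501 (95.4%) were germ-like. They held 58577191 UMIs at E13.5 and 59698131 at E12.5, with medians of 21868 and 23481 UMIs per cell. All 10 germ cell markers were detected at both stages, at 0.823% of UMIs at E13.5 and 0.763% at E12.5. Markers of other cells were low but not equal. Levels are given in CPM, the UMIs of a gene for every 1e6 UMIs counted in the summed cells. Endothelial markers (5 of 6 detected) summed to 36.9 and 97.0 CPM at E13.5 and E12.5, Sertoli markers (7 of 7) to 11.8 and 11.2 CPM, and red cell markers (9 of 9 at E13.5, 3 of 9 at E12.5) to 23.1 and 0.285 CPM. The median mitochondrial share was 4.68% at E13.5 and 3.86% at E12.5. The part of these in the stage ratios below was not tested. The libraries shared 24 cell barcodes. With 1 library per stage there is no replicate error. The effects of stage and library cannot be told apart. Every interval is a 95% interval of counting error only.

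Both host RNAs were higher in the E13.5 library. Snhg12 had 3217 UMIs at E13.5 and 1852 at E12.5, which is 54.9 CPM (53.0 to 56.9) at E13.5 and 31.02 CPM (29.6 to 32.5) at E12.5. The intervals of the stages lie far apart, and the E13.5 level over the E12.5 level was 1.77 (1.67 to 1.88). Snhg6 had 1906 UMIs at E13.5 and 1350 at E12.5, which is 32.5 CPM (31.1 to 34.0) at E13.5 and 22.6 CPM (21.4 to 23.9) at E12.5. Its intervals are also apart, and its ratio was 1.44 (1.34 to 1.54). These values say that a larger part of the RNA counted at E13.5 came from both genes. They do not tell more transcripts per cell from less of other RNA.

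Of the members, 1 of 2 was at least 1.5-fold higher at E13.5, Snhg12, and Snhg6 stood just under that size. Across the 7309 genes that reached 10 CPM in at least one of the libraries, 8.59% were at least 1.5-fold higher and 9.95% at least 1.5-fold lower, 18.5% in all. The median log2 ratio of all these genes was -0.02. It was 0.82 for Snhg12, above 94.98% of the genes, and 0.52 for Snhg6, above 89.9% of them. By level, Snhg12 stood above 66.2% of these genes at E13.5 and above 47.4% at E12.5, and Snhg6 above 49.5% and 35.7%.

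**Figure D1:**
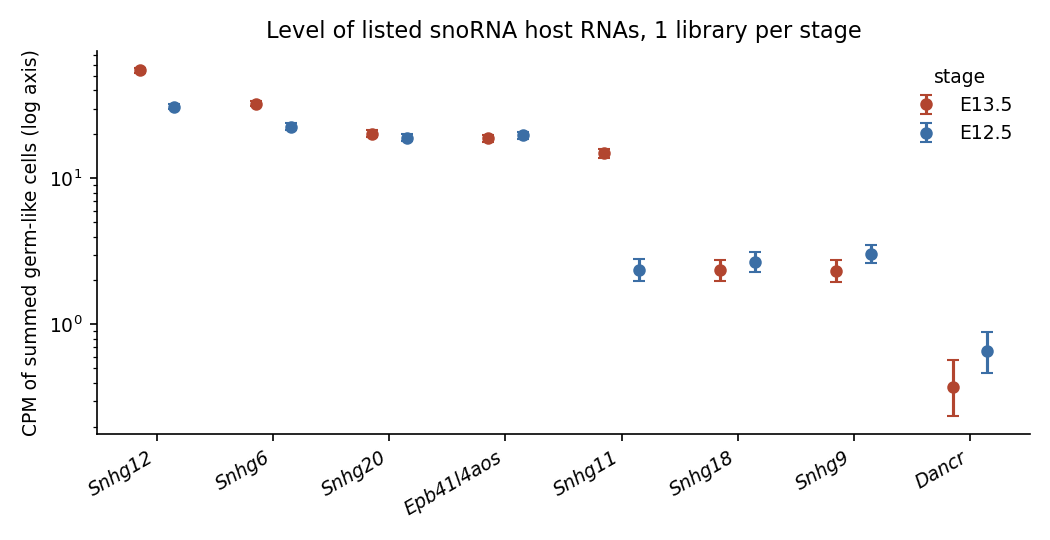
Level of the 8 listed snoRNA host RNAs in summed germ-like cells, in CPM on a log axis, with E13.5 left of E12.5 for each gene; bars are exact Poisson 95% intervals of counting error. Snhg12, Snhg6 and Snhg11 stand higher at E13.5 with intervals apart, while Snhg20 and Epb41l4aos stand close together at both stages.

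Both RNAs were also caught in more cells at E13.5. Each germ-like cell was thinned to 14500 UMIs so that depth was equal, leaving 2323 cells at E13.5 and 2326 at E12.5 (226 and 175 shallower cells left out). Snhg12 was seen in 46.3% of cells at E13.5 (44.3 to 48.4%) and 33.2% at E12.5 (31.3 to 35.1%). Without thinning these shares were 59.8% and 47.0%. Snhg6 was seen in 37.2% of cells at E13.5 (35.2 to 39.2%) and 27.8% at E12.5 (26.0 to 29.7%), and without thinning in 51.0% and 39.9%. A cell without a UMI may still hold the RNA, since the mean thinned count was below 1 for both genes.

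The members differed in how their UMIs were spread over cells. Snhg6 counts were spread about as evenly as random counting gives, with a ratio of variance to mean of 0.990 at E13.5 and 1.04 at E12.5, against medians of 1.05 and 1.04 over the genes compared. Snhg12 counts were less even. Its ratio of variance to mean was 1.52 at E13.5 and 1.24 at E12.5, above 97.0% and 94.5% of genes. At E13.5, 7.15% of cells held 3 or more Snhg12 UMIs, against 1.85% at E12.5, and the fullest thinned cell held 12 at E13.5 and 7 at E12.5. Cells without Snhg12 made up 53.7% at E13.5, where a Poisson count of the same mean gives 46.6%.

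**Figure D2:**
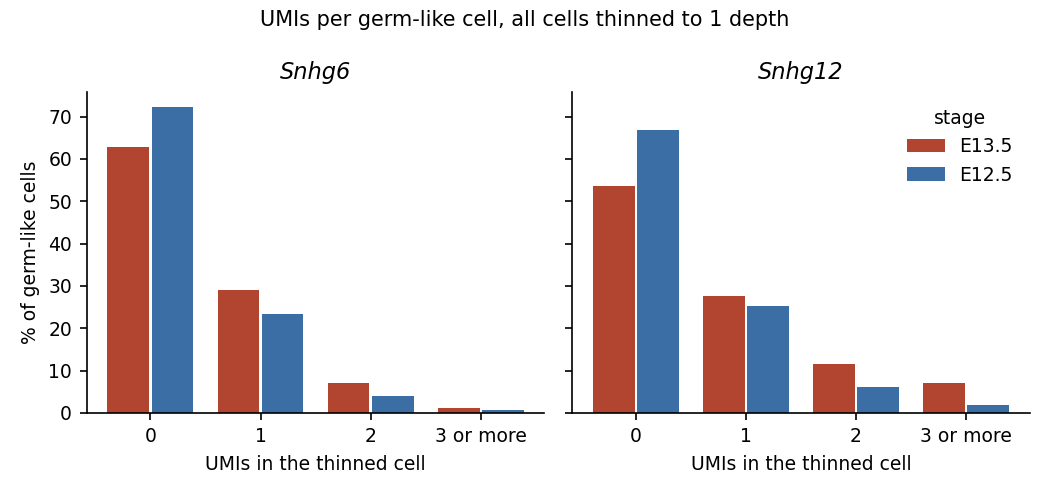
Share of germ-like cells (%) with 0, 1, 2 or 3 or more UMIs of Snhg6 and of Snhg12 after thinning every cell to 14500 UMIs, with E13.5 bars left of E12.5 bars (2323 and 2326 cells). Cells with 3 or more Snhg12 UMIs are 7.15% at E13.5 and 1.85% at E12.5, while such cells are 1.03% and 0.645% for Snhg6.

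At E13.5 the Snhg12 level followed the cell cycle transcripts of the cell. Cells were ordered by their summed UMIs of 42 S phase and 50 G2/M genes, which encode DNA replication and mitosis proteins, and cut into tertiles, equal groups of low, middle and high cells. At E13.5 Snhg12 stood at 30.6 CPM (28.0 to 33.3) in the lowest tertile, 60.4 CPM (56.9 to 64.1) in the middle tertile and 68.9 CPM (65.4 to 72.6) in the highest tertile. The lowest tertile was thus near the E12.5 library, and the higher levels lay in the middle and highest tertiles. At E12.5 the same tertiles stood at 29.8, 30.2 and 33.0 CPM. The highest tertile over the lowest was 2.25 at E13.5 and 1.11 at E12.5. Snhg6 had overlapping intervals over the tertiles of each library, which stood, lowest to highest, at 33.3, 32.8 and 31.3 CPM at E13.5 and at 21.8, 22.1 and 23.9 CPM at E12.5.

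The tertiles of the libraries hold different cells, with median S and G2/M UMIs of 93, 183 and 232 at E13.5 and 187, 210 and 233 at E12.5. Ranges that are the same in both libraries were therefore compared, a choice made after these values were seen. In cells with 200 to under 250 such UMIs (736 at E13.5, 1427 at E12.5) Snhg12 stood at 70.0 CPM at E13.5 and 30.9 CPM at E12.5, a ratio of 2.26 (2.09 to 2.45). In cells with 150 to under 200 (560 and 758) it stood at 58.8 CPM and 29.7 CPM, a ratio of 1.98 (1.77 to 2.21). In the cells with 250 or more (187 and 114) it stood at 70.7 CPM and 42.1 CPM, a ratio of 1.68 (1.37 to 2.07). In each of these 3 ranges of the sum Snhg12 was higher at E13.5, by 1.68-fold to 2.26-fold, against 1.77-fold over all cells. Cells with fewer than 150 such UMIs were not compared between the stages, so these ranges do not cover all cells. The ranges match the sum only and not the mix of S phase and G2/M UMIs, and the part of that mix was not tested. In the 457 E13.5 cells with fewer than 100 such UMIs Snhg12 stood at 26.6 CPM (23.5 to 30.05). Only 5 cells were this low at E12.5, too few for a comparison. Snhg6 had ratios of 1.33 (1.20 to 1.49) in the 200 to under 250 range, 1.63 (1.42 to 1.87) in the 150 to under 200 range, and 1.28 (0.955 to 1.74), an interval that includes 1, in the cells with 250 or more. It stood at 32.9 CPM in the E13.5 cells with fewer than 100.

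At E12.5 the S phase and G2/M transcripts went opposite ways with Snhg12. In tertiles by G2/M UMIs alone it stood at 26.4, 31.1 and 35.1 CPM, lowest to highest. In tertiles by S phase UMIs alone it stood at 36.0, 30.4 and 26.1 CPM. At E13.5 it was higher with more of either, at 31.2, 57.6 and 71.1 CPM by G2/M and 32.8, 62.9 and 65.6 CPM by S phase. Opposite ways at E12.5 were also seen in other host RNAs. The highest tertile over the lowest was 0.775 by S phase and 1.34 by G2/M for Epb41l4aos. For Snhg11 these values lay the other way, at 2.55 and 0.471. The ranges are stretches of a score and not cell types, and the part of free RNA in them was not tested. Cell depth also went with the level. Snhg12 stood at 47.6, 54.4 and 58.7 CPM in tertiles of E13.5 cells by total UMIs, and at 28.3, 28.7 and 34.4 CPM in those of E12.5 cells. The part of depth in the cycle tertiles was not tested beyond the equal thinning of the scores.

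**Figure D3:**
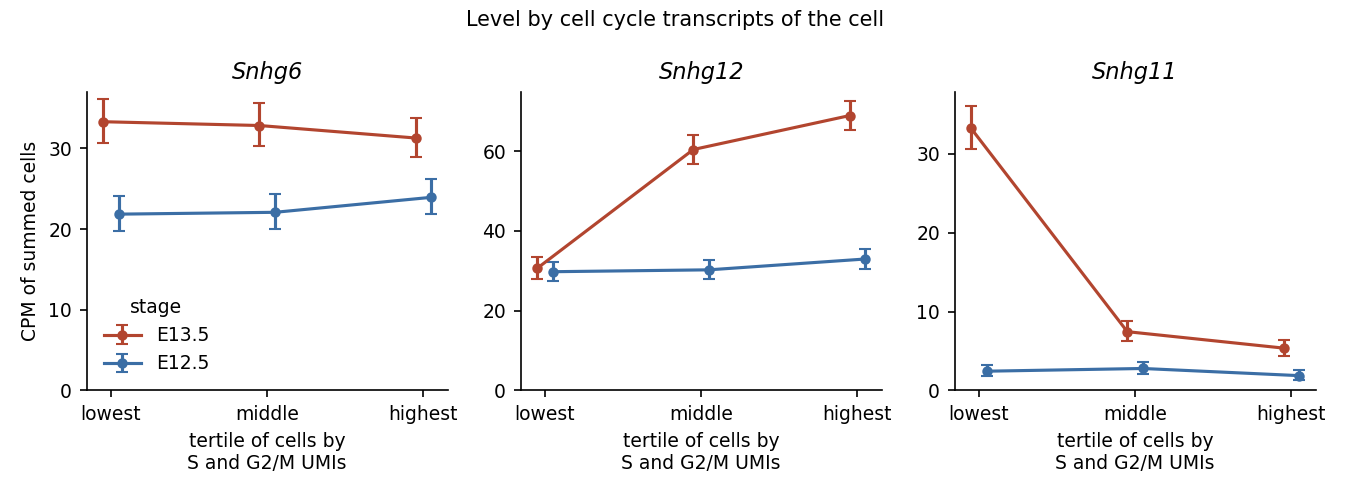
Level (CPM of summed cells) of Snhg6, Snhg12 and Snhg11 in tertiles of germ-like cells by their S and G2/M UMIs, with E13.5 in red and E12.5 in blue; bars are exact Poisson 95% intervals and each panel has its own axis from 0. At E13.5 Snhg12 stands at 30.6, 60.4 and 68.9 CPM and Snhg11 at 33.3, 7.44 and 5.36 CPM from the lowest to the highest tertile, while Snhg6 stays between 31.3 and 33.3 CPM.

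The Snhg12 level also differed between the clusters of germ-like cells. At E13.5, Snhg12 stood at 65.8 CPM in cluster 1 (1141 cells, led by Krt17 and Sycp1), 63.6 CPM in cluster 4 (557 cells, led by histone genes) and 30.98 CPM in cluster 3 (837 cells, led by Nanos2, an RNA-binding protein of the male germ cell pathway). At E12.5 it stood at 37.2 CPM in cluster 2 (876 cells, led by the mitotic kinases Plk1 and Aurka) and 27.2 CPM in cluster 0 (1623 cells, led by Rrm2 and histone genes). Snhg6 lay between 31.7 and 33.7 CPM over the E13.5 clusters, and at 24.1 and 21.7 CPM in clusters 2 and 0 at E12.5. Clusters were made from the same cells, so these levels are no independent evidence.

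No co-variation of the members from cell to cell was detectable. Spearman's rho of thinned Snhg6 with Snhg12 counts was 0.005 over 2323 cells at E13.5 and 0.004 over 2326 cells at E12.5. These cells share a library and were brought to one depth. Snhg12 was seen in 46.2% of E13.5 cells with an Snhg6 UMI and in 46.4% of those without. At E12.5 these shares were 33.7% and 33.0%. Counts this sparse lower any rho, so a weak relation would not be detectable.

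Ribosomal proteins are the growth-linked messages to which snoRNA hosts are usually likened. Their transcripts took 31.3% of germ-like UMIs at E13.5 and 30.6% at E12.5. Of 83 ribosomal protein genes that reached 10 CPM, 0 were at least 1.5-fold higher at E13.5, beside 8.59% of all genes compared. Lower by that size was 1 of the 83, beside 9.95% of all genes compared, and the median ratio of the 83 was 1.03. Of the 83, 82 were at 50 CPM or more, where 304 of all 2884 genes were 1.5-fold apart in either direction. The ratios of the 83 ran from 0.514 for Rpl26, of the large subunit, to 1.32 for Rpl21, also of the large subunit. Rpl13, the most abundant, had 9401 CPM at E13.5 and 8577 CPM at E12.5. Both members had ratios above all 83. Ribosomal protein genes have many processed pseudogenes, so single counts such as those of Rpl26 and Rpl21 are uncertain.

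Within a library, no order of Snhg6 by ribosomal protein transcripts was detectable. In quintiles of cells by their ribosomal protein UMIs it lay between 29.96 and 33.8 CPM at E13.5 and between 22.1 and 23.4 CPM at E12.5. Its rho with these UMIs was 0.007 at E13.5 and 0.014 at E12.5. Every quintile at E13.5 stood above every quintile at E12.5.

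Snhg12 was lower at E13.5 where ribosomal protein transcripts were higher. From the lowest to the highest quintile (each about equal in cells) it stood at 74.0, 55.1, 60.2, 45.4 and 39.2 CPM at E13.5, and at 30.2, 28.9, 31.2, 31.9 and 32.6 CPM at E12.5. The intervals of the first and last quintile at E13.5 were 68.9 to 79.4 and 35.6 to 43.0 CPM. The rho was -0.176 at E13.5 and 0.030 at E12.5, beside medians of -0.021 and -0.022 over all genes compared. Ribosomal protein UMIs themselves went against S and G2/M UMIs, with a rho of -0.588 at E13.5 and -0.345 at E12.5. Given the S and G2/M scores, the partial rho of Snhg12 at E13.5 was -0.024. Within the lowest tertile of E13.5 cells by cycle transcripts, Snhg12 stood at 28.1 CPM in the cells below the median of ribosomal protein UMIs and 32.8 CPM in those above it. In the middle tertile these values were 62.4 and 58.7 CPM, and in the highest tertile 73.1 and 65.3 CPM. These differences by ribosomal protein transcripts were smaller than those between the lowest and the other tertiles.

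**Figure D4:**
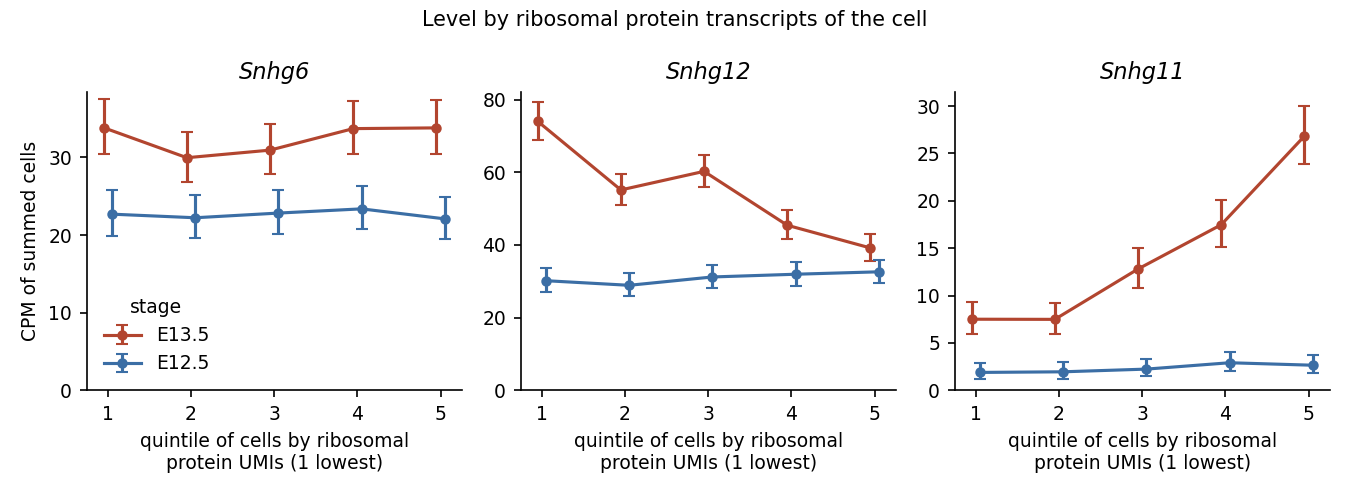
Level (CPM of summed cells) of Snhg6, Snhg12 and Snhg11 in quintiles of germ-like cells by ribosomal protein UMIs, 1 being the lowest, with E13.5 in red and E12.5 in blue; bars are exact Poisson 95% intervals and each panel has its own axis from 0. At E13.5 Snhg12 stands at 74.0 CPM in the first quintile and 39.2 CPM in the last, Snhg11 at 7.51 and 26.8 CPM, and Snhg6 at 33.8 CPM in both.

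The other snoRNA host RNAs listed for both stages, 6 in number, were compared, and 3 of them passed 10 CPM. Snhg11, a host gene that RefSeq lists as non-coding and GENCODE M21 as protein-coding, had 870 UMIs or 14.9 CPM at E13.5 (13.9 to 15.9) and 141 UMIs or 2.36 CPM at E12.5 (1.99 to 2.79). Its ratio was 6.29 (5.26 to 7.57). In the ranges of the summed S and G2/M UMIs that were compared, the ratio was smaller. It was 3.14 (2.17 to 4.61) at 150 to under 200 and 2.33 (1.73 to 3.14) at 200 to under 250. At 250 or more it was 2.46 (0.994 to 7.28). Cells with fewer than 150 such UMIs were not compared between the stages, so these ratios do not cover them. At E13.5 Snhg11 stood at 40.1 CPM in the lowest range of these UMIs, against 5.01 CPM at 250 or more. Within the E13.5 library it ran opposite to Snhg12, with 33.3, 7.44 and 5.36 CPM from the lowest to the highest tertile of cycle transcripts and 7.51 to 26.8 CPM from the lowest to the highest quintile of ribosomal protein transcripts. Its rho with Snhg12 was -0.093 at E13.5 and -0.042 at E12.5. It stood at 34.3 CPM in the Nanos2-led cluster, whose leading genes it is among, and at 6.65 and 6.82 CPM in clusters 1 and 4.

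The other listed hosts were close between the stages or scarce. Snhg20 had 20.3 CPM at E13.5 and 19.05 CPM at E12.5, a ratio of 1.06 (0.980 to 1.16). Epb41l4aos had 18.8 and 19.7 CPM at E13.5 and E12.5, a ratio of 0.954 (0.878 to 1.04). For both, the interval of the ratio includes 1. Within the E13.5 library Snhg20 was not even. Over the tertiles of cycle transcripts it lay between 15.6 and 29.1 CPM, highest in the middle tertile, and the highest tertile over the lowest was 0.950. Snhg9 had 2.34 and 3.05 CPM (ratio 0.767, 0.610 to 0.963), Snhg18 had 2.36 and 2.697 CPM (0.874, 0.691 to 1.10) and Dancr, which restrains differentiation in human epidermal progenitors, had 22 and 39 UMIs (0.575, 0.325 to 0.994) at E13.5 and E12.5. None of these 5 was higher at E13.5 by 1.5-fold. Dancr was lower by more than 1.5-fold, on few UMIs, and the intervals of Snhg9 and Dancr lay below 1.

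Genes that code for proteins and host snoRNAs lay near a ratio of 1. All 15 named were at 10 CPM or more, and also at 50 CPM or more, where 304 of all 2884 genes were 1.5-fold apart. Of the 15, 0 were 1.5-fold apart in either direction (median log2 ratio -0.04, summed ratio 0.965). The translation factor Eif4a2 had the highest ratio, 1.32, and its paralog Eif4a1 the lowest, 0.777. The chaperone Hspa8, the most abundant, had 3693 CPM at E13.5 and 3451 CPM at E12.5.

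The proteins that bind snoRNAs were within 1.5-fold between the stages. Of 8 listed core proteins, 7 had a ratio below 1 and 0 were 1.5-fold apart. Their median log2 ratio was -0.11, beside -0.02 over all 7309 genes compared, whose quartiles were -0.27 and 0.22. All 8 were at 50 CPM or more, where 304 of all 2884 genes at that level were 1.5-fold apart. For 8 genes, 0 is near that share. Fbl, the methyltransferase of box C/D particles, had 447 CPM at E13.5 and 430.1 CPM at E12.5. Its partners Nop56 and Nop58 had ratios of 0.973 and 0.971, and Nhp2l1, the protein that first binds the box C/D fold, had 0.875. Of the H/ACA proteins, the pseudouridine synthase Dkc1 had 151 CPM at E13.5 and 178 CPM at E12.5, a ratio of 0.849 (0.825 to 0.873). Nhp2, Nop10 and Gar1 had ratios of 0.870, 0.940 and 0.908. Across E13.5 cells the summed core proteins had a rho of 0.177 with Snhg12 and 0.009 with Snhg6, and across E12.5 cells 0.020 and 0.0003. The S and G2/M transcripts had a rho of 0.217 and 0.220 with Snhg12 at E13.5, and -0.078 and 0.085 at E12.5.

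The medians of the lists for the rest of the pathway also lay near a ratio of 1, with single genes further from it. Of 9 factors that assemble snoRNA particles, 0 were 1.5-fold apart (median log2 ratio -0.08), beside 18.5% of all genes compared. They ran from Nolc1, a nucleolar chaperone, at 0.689 to Pih1d1, of the R2TP complex, at 1.33. Nolc1 was thus 1.45-fold lower at E13.5 (1.42 to 1.49). Of 16 nonsense-mediated decay factors, 0 were 1.5-fold apart (median log2 ratio -0.06), beside the same 18.5%. Upf1, the central helicase of this decay, was lowest at 0.687, with 25.6 CPM at E13.5 and 37.3 CPM at E12.5. It was thus 1.46-fold lower (1.36 to 1.55), an interval that includes 1.5. Casc3, of the exon junction complex, was highest at 1.30, and Rbm8a, another of its subunits, most abundant, with a ratio of 0.890.

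Other messages with a TOP start were close between the stages. All 16 were at 50 CPM or more, where 304 of all 2884 genes at that level were 1.5-fold apart. Of the 16, 0 were 1.5-fold apart, with a summed ratio of 1.001. They ran from Tpt1 at 0.831 to the poly(A)-binding protein Pabpc1 at 1.21, and the elongation factor Eef1a1, the most abundant, had 1.06. Of 28 ribosome biogenesis and RNA polymerase I genes, 0 were higher and 1 was lower by 1.5-fold, Rrn3, an initiation factor of that polymerase, at 0.606. Polr1c, a polymerase subunit, was highest at 1.40, and the nucleolar protein Npm1, the most abundant, had 0.970. Of 41 S phase genes, 14 lay below by 1.5-fold or more at E13.5 and 0 above (median log2 ratio -0.48). Of 49 for G2/M, 4 lay below and 1 above (median -0.21), and 37 had a ratio below 1 against 12 above it. Over all genes compared, 9.95% lay below and 8.59% above by 1.5-fold or more (median -0.02). Rrm2, a subunit of ribonucleotide reductase, was lowest of the S phase list at 0.253, Uhrf1 highest at 1.31 and Nasp most abundant at 0.719. In the G2/M list Mki67 was lowest at 0.547, G2e3 highest at 1.65 and Hmgb2 most abundant at 0.841.

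**Figure D5:**
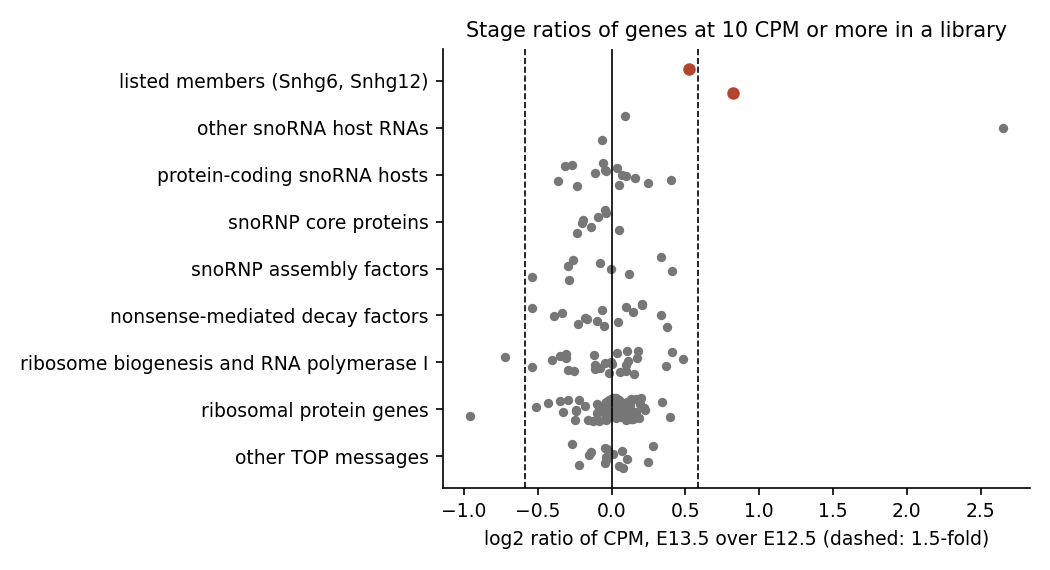
Log2 ratio of CPM, E13.5 over E12.5, of genes that reached 10 CPM, with 1 row per gene list and 1 point per gene (the vertical spread within a row has no meaning); dashed lines mark 1.5-fold. Snhg6 (0.52) and Snhg12 (0.82) lie to the right of all 83 ribosomal protein genes, and the point at 2.65 is Snhg11.

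Genes beside the members were examined because reads can be shared. Mcmdc2, a meiotic recombination gene, lies on the opposite strand and its end overlaps the last 127 bases of Snhg6, inside the last exon, where a 3′ assay counts. It had 564 UMIs or 9.63 CPM at E13.5 and 165 UMIs or 2.76 CPM at E12.5, a ratio of 3.48 (2.92 to 4.17). The sources used here do not say whether the authors' counting used strand, so Snhg6 and Mcmdc2 counts are uncertain where they overlap, and the part of Mcmdc2 in the Snhg6 ratio was not tested. Trnau1ap, which acts in selenocysteine incorporation, lies 738 bases beyond Snhg12 on the opposite strand. It had 49.7 CPM at E13.5 and 55.4 CPM at E12.5, a ratio of 0.899 (0.855 to 0.945), against 1.77 for Snhg12.

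The genes most like the summed members, by the smaller of the rho values at the 2 stages, were Zfos1 (0.092), the mitotic kinase gene Aurka (0.082), Dppa5a (0.082), which encodes an RNA-binding protein of pluripotent cells, Nucks1 (0.073) and the homeobox gene Rhox9 (0.067). The comparison took 2444 genes at 50 CPM or more in both libraries, with a median of -0.014. None of the 10 most alike was a ribosomal protein gene. Such genes made up only 3.36% of the genes compared, so 10 genes are too few to show a difference from that share. In counts this sparse such values only order the genes. At E13.5 the sum itself had a rho of 0.784 with Snhg12 and 0.577 with Snhg6. The genes most like each member alone were not sought.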

How the data were processed

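Per the labels, 1 droplet library (10x v2) was made from sorted Oct4-GFP+ cells of each stage. The deposited tables hold raw UMI counts per gene and barcode. Per the submitters' processing notes, the authors used Cell Ranger (no version given) and mm10, also called GRCm38. Annotation and strand setting are not given in the sources used here. The tables held 59842242 UMIs in 2992 barcodes at E13.5 and 60383440 in 2847 at E12.5, and each listed gene was in at least 3 barcodes.

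Barcodes needed 500 genes and a mitochondrial share under 10%. Counts were scaled to 10000 UMIs, logged and clustered jointly (scanpy 1.11.5, leidenalg 0.10.2, 2000 variable genes, 30 components, 15 neighbours, resolution 0.5). A cluster was germ-like if at least 3 germ markers were each in most of its cells. It also needed fewer than 3 markers of any other cell type among its leading genes. Clusters with low median UMIs and no germ marker among those genes were not taken. Barcodes at 0.5% or more macrophage or red cell markers were left out. A cluster of 208 low-UMI barcodes stayed unnamed. Scrublet called 27 and 65 doublets at E13.5 and E12.5, kept except in an alternative.

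UMIs summed per library were divided by the library's germ-like total. Levels have exact Poisson, shares and ratios exact (Clopper-Pearson) 95% intervals, for counting error only, and no test was made. A ratio needed 3 UMIs in each library. Thinning used the 10th percentile of the shallower library, floored to 500. CPM of 3′ UMIs were not divided by length. Intervals and thinning were tested on simulated data. Those were independent Poisson counts, so the test does not cover spread between cells beyond counting error. Transcripts and snoRNAs came from GENCODE M21 and the promoter from RefSeq. Snhg12, of the 2 described genes, matched the promoter table; Snhg6 did not.

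The members and gene lists were chosen with earlier results of these data known. Named genes were the members, the other host RNAs and core proteins, the highest, lowest and most abundant of each other list, neighbours within 5 kb, and the 5 most alike. Alternatives were TMM factors (edgeR 4.0.16), other denominators, cell filters, germ rules, clusterings, minimum levels, thinning depths and scores.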

Additional observations from a re-analysis of the deposited data

How the results depend on the processing

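Over 10 alternatives for cells and denominators, 1 of them (leaving out barcodes found in both libraries) added after the data were seen, the Snhg12 ratio ran from 1.76 to 1.89 and stayed at or above 1.5 in 10 of 10, and the Snhg6 ratio ran from 1.39 to 1.48 and stayed below 1.5 but above 1 in 10 of 10. The value of 1.89 came from the stricter filter (2000 genes, under 5% mitochondrial UMIs). Under it the Snhg11 ratio was 4.70. Genes at least 1.5-fold apart numbered 3445 of 11710 at a minimum of 1 CPM and 304 of 2884 at 50 CPM, against 1355 of 7309. Thinned to 5000 UMIs, the Snhg6 share was 3.65 percentage points higher at E13.5, against 9.38 at the depth used, and the Snhg12 share 10.3 points higher, against 13.1. The rho of Snhg12 with ribosomal protein transcripts at E13.5 was -0.124 when Snhg12 was thinned over other genes and -0.024 given the cycle scores. In tertiles by S phase alone, the highest over the lowest tertile of Snhg12 was 1.997 at E13.5 and 0.725 at E12.5, and that of Snhg6 0.870 at E12.5. By G2/M alone Snhg12 was 1.33 at E12.5. The cause of these differences was not tested. No paired analysis was possible because each stage is 1 library. Depth limits statements on single cells, since most cells held 0 or 1 UMI of a member, and on Dancr.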

Other observations

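The members were also caught outside the germ-like cells. In 29 Sertoli-like cells (25 from E13.5 and 4 from E12.5), pooled over both libraries, Snhg6 had 18 UMIs or 49.1 CPM (29.1 to 77.6) and Snhg12 had 21 UMIs or 57.3 CPM (35.5 to 87.6). In the 208 barcodes of the unnamed low-UMI cluster Snhg6 had 36.2 CPM (23.2 to 53.9) and Snhg12 42.2 CPM (28.1 to 61.0). Snhg18 stood at 24.6 CPM (11.2 to 46.6) in the Sertoli-like cells, against 2.36 CPM in germ-like cells at E13.5 and 2.697 CPM at E12.5. No cell type here is known to lack the members, so the part of free RNA in their shares of cells was not tested.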
